A study of Homo sapiens with 24 samples.

Results

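The cytosolic ribosomal protein genes are the 81 genes, of 60617 in the table, whose symbol is RPL or RPS followed by a number with at most an A, L, X or Y after it, plus RPLP0, RPLP1, RPLP2 and RPSA. Pseudogenes, the RPS6K kinases and antisense genes were left out. The large subunit of the ribosome accounts for 49 of these genes and the small subunit for 32. The genes were measured by RNA-seq in MDA686TU cells, a malignant head and neck squamous carcinoma line grown in DMEM/F12 with serum. The cells were left untreated (control) or received EGCG, the major polyphenol of green tea, at 40 µM, resveratrol, a phytoalexin of grapes, at 15 µM, or both agents at these doses (combination), for 24 h and with 6 libraries in each of the 4 groups. The resveratrol stock was made in DMSO and that of EGCG in water. Whether DMSO was added to the untreated cells is not given in the sources used here, so an effect of that solvent cannot be told apart from an effect of resveratrol. All libraries come from a single cell line, and nothing in the labels says that they came from separate cultures, so p-values measure the spread between these libraries.

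A ribosome is built from a small subunit, which reads the mRNA, and a large subunit, which joins the amino acids, and each holds ribosomal RNA and a fixed set of proteins in nearly equal amounts. Ribosomal protein mRNAs are among the most abundant in growing cells, and most of them start with a cytosine inside a run of pyrimidines, the terminal oligopyrimidine (TOP) motif. This motif places their translation under mTORC1, a kinase complex that senses growth factors and amino acids. Many of the genes have processed pseudogenes, DNA copies of the spliced mRNA, and many carry small nucleolar RNAs (snoRNAs) in their introns.

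Library totals ranged from 7034872 to 11735574 counts. All 9 squamous epithelial markers were abundant, with KRT5 at 34339 to 49383 and TP63 at 3286 to 3859 normalized counts over the 24 libraries. Of the other cell types' markers, COL3A1, PTPRC and PECAM1 had a median of 0, and COL1A1 (875 to 1718) was the only 1 of 15 above 30 normalized counts in any library. Replicates 1 to 3 and 4 to 6 of every group differed, for example in the share of counts from genes of the mitochondrial genome (0.249% to 0.326% against 0.448% to 0.775%), and what the difference stands for is not given in the sources used here. Results are therefore also given within each set of replicates.

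The starts of transcription of 7 genes are shown because they recur in the results. All sequences are from RefSeq (GRCh38.p14), written 5′ to 3′ on the strand of the gene, with 25 bases before the start and 20 bases from it on (for RPL34, the listed start with the longer pyrimidine run). The capitals mark the unbroken run of pyrimidines (C or T) that holds the start base.
RPL34: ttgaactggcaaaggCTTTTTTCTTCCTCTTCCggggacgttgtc
RPL14: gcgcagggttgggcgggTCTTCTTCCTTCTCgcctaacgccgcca
RPS6: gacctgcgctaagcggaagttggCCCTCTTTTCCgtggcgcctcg
RPL41: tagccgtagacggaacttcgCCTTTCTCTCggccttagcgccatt
RPL39: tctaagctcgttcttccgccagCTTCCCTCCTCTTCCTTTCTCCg
RPS27: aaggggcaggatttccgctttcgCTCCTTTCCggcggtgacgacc
RPS27L: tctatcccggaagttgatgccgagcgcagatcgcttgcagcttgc
RPL34 lies at chr4:108620551-108620595 (+), RPL14 at chr3:40457314-40457358 (+) and RPS6 at chr9:19380217-19380261 (-). RPL41 lies at chr12:56116608-56116652 (+) and RPL39 at chrX:119791611-119791655 (-). RPS27 lies at chr1:153990737-153990781 (+) and its paralog RPS27L at chr15:63157458-63157502 (-). RPS27L, whose start base is a purine, has no such run, while the runs of the other 6 were 9 to 22 bases long. RPL17, not shown here, also has a run of 0 bases at its listed start.

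The promoter table held 64 of the 81 ribosomal protein genes. A pyrimidine run of at least 8 bases across a listed start was found in 45 of them (70.3%), against 5.94% of all 27305 genes in the table. The letters CTTTC, searched on the gene's strand from 10 bases before to 15 bases after any listed start, were found in 30 of them (46.9%), against 4.61% of all genes. CTTTC can lie inside the pyrimidine run, so the counts overlap. A match describes the letters in these windows only.

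In untreated cells the ribosomal protein genes took 4.32% to 4.80% of all counts. Levels were compared between genes only per length, in FPKM as the authors computed it. RPL41, which encodes the shortest ribosomal protein, was highest at 1026 ± 62.8 FPKM (SD, n = 6), followed by RPS2 at 809 ± 26.0 and RPL8 at 763 ± 26.0. The libraries of RPL41 (955 to 1112) lay above those of RPS2 (778 to 849), whereas the ranges of RPS2 and RPL8 (722 to 798) overlapped. This order holds for the genes' own rows only. Pseudogene rows held 65.7% of the family's counts for RPS2, 39.4% for RPL41 and 2.13% for RPL8. The lowest of the genes tested were RPS27L at 1.96 ± 0.229, RPL36A at 12.6 ± 1.22 and RPL17 at 17.8 ± 1.67 FPKM. RPL36A and RPL17 are parts of the large subunit, and most counts of their families lay on pseudogene rows, as given further on. Each also overlaps a readthrough gene on its strand, RPL36A-HNRNPH2 and RPL17-C18orf32. RPS26, RPL21 and RPS27 had 82.1%, 82.0% and 79.9% of family counts on pseudogene rows, at 127, 174 and 213 FPKM. What the low values of RPL36A and RPL17 stand for was not tested.

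The genes RPL10L and RPL3L did not pass the filter on low counts and were not tested. RPL10L, an intronless copy of RPL10 known from the testis, had 1 count in 1 control library and 0 counts in the other 23 libraries. RPL3L, the striated muscle paralog of RPL3, had 0 to 10 counts per library, with sums over 6 libraries of 37 in control, 30 with EGCG, 37 with resveratrol and 30 under the combination. Both genes were thus at or near 0 in these cells at this depth, and the other 79 genes entered the tests.

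Summed over the 81 genes, the level was lower in every library with resveratrol than in any library without it. The share of counts was 4.32%, 4.50% and 4.80% (lowest, median and highest of 6 libraries) in control, 4.43%, 4.54% and 4.94% with EGCG, 3.99%, 4.06% and 4.15% with resveratrol, and 3.99%, 4.10% and 4.31% under the combination. On the authors' normalized scale the sum was 0.842 of control with resveratrol and 0.862 under the combination, and with EGCG it was 1.01 of control. The highest combination library and the lowest control library were separated by a small gap on the share scale, and the resveratrol and combination ranges overlapped. The values are shares of each library's RNA, so less RNA of these genes per cell, fewer cells with a given level and more RNA of other genes cannot be told apart. The ratio of large to small subunit counts was 1.74 ± 0.0215 in control, 1.74 ± 0.0140 with EGCG, 1.75 ± 0.0125 with resveratrol and 1.76 ± 0.0148 under the combination (SD, n = 6), with ranges that overlapped between all groups.

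**Figure D1:**
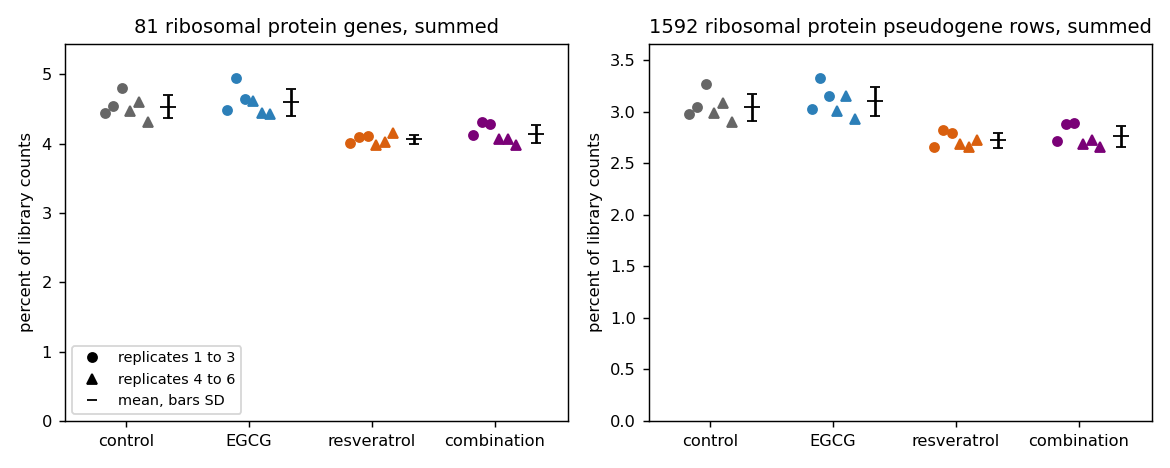
Percent of each library's counts (vertical axes) on the 81 ribosomal protein genes (left) and on the 1592 rows of ribosomal protein pseudogenes (right) in the 4 groups. Circles are replicates 1 to 3, triangles replicates 4 to 6, and the bars give the mean ± SD of 6 libraries; resveratrol and combination libraries lie at 3.99% to 4.31% in the left panel, and control and EGCG libraries at 4.32% to 4.94%.

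The genes also moved together between libraries of the same group. The median over the 79 tested genes of the log2 CPM minus the control mean was 0.09 in control replicate 3, where 1 of 79 genes lay below the control mean, and -0.06 in control replicate 6, where 75 did. In EGCG replicate 2 this median was 0.13 and 0 of 79 genes lay below the control mean. With resveratrol it ran from -0.28 to -0.21 and under the combination from -0.27 to -0.16, with 76 to 77 and 74 to 78 genes below the control mean. The spread of this median was 0.0509 in control, 0.0672 with EGCG, 0.0261 with resveratrol and 0.0420 under the combination (SD, n = 6).

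**Figure D2:**
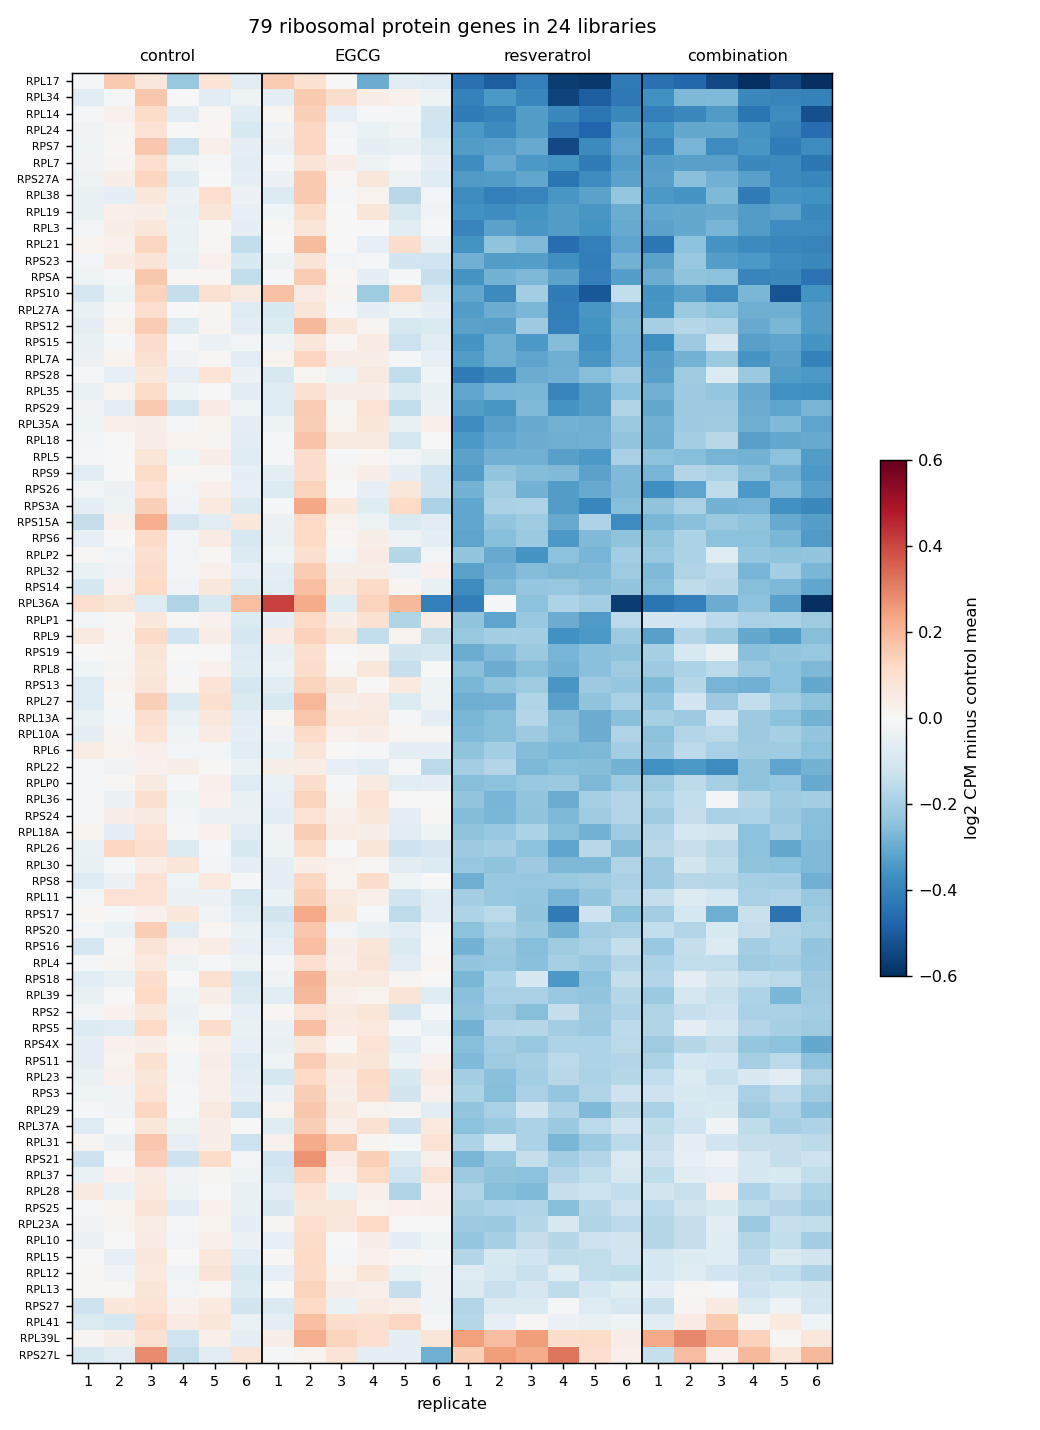
Log2 CPM minus the control mean (color, from -0.6 in blue to 0.6 in red) of the 79 tested genes (vertical axis, ordered by the change with resveratrol) in the 24 libraries (horizontal axis, replicates within the 4 groups). Control replicate 3 and EGCG replicate 2 are red over nearly the whole height, with medians of 0.09 and 0.13, and the 12 libraries with resveratrol are blue except at the lowest lines, which hold RPL41, RPL39L and RPS27L.

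The first comparison asked what EGCG alone did. No ribosomal protein gene passed the test with EGCG, with 0 of 79 called higher and 0 called lower by edgeR's quasi-likelihood test at an adjusted p under 0.1 and a p under 0.05, against 1.76% called in either direction among all 15476 genes tested. Log2 fold changes ran from -0.06 to 0.11 with a median of 0.01, and their standard errors from 0.0248 to 0.0940. The smallest adjusted p was 0.481 (RPL31, log2 fold change 0.08 ± 0.0397, SE), which was also the only one of the 79 genes with an unadjusted p under 0.05. The DESeq2 Wald test also called 0 genes.

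The second comparison asked what resveratrol alone did, and nearly the whole set fell by a similar amount. With resveratrol, 76 of 79 genes fell and 2 rose, against 28% and 28.9% of all genes tested in these directions, and only RPL41 was not called. The median log2 fold change was -0.25, which is 16.1% lower than control, against 0.00 over all genes tested, and the middle 50% of the genes lay between -0.31 and -0.20. The 6 resveratrol libraries lay below all 6 control libraries for 69 of the 79 genes, against 15.8% of all genes. By subunit, 45 of 47 large subunit genes fell and 1 rose (median -0.25), and 31 of 32 small subunit genes fell and 1 rose (median -0.26). Within replicates 1 to 3 the median was -0.27, and within replicates 4 to 6 it was -0.23. Genes with many counts fell more often in general, and among the 2079 genes with a mean of at least 1000 counts 56.1% were called lower. Of these, the 74 that are ribosomal protein genes had a median log2 fold change of -0.25 with 73 called lower, and the 2005 others had a median of -0.10 with 1094 (54.6%) called lower. Scaling by library size alone shifted the median of all genes by 0.09, the ribosomal protein median became -0.17 with 71 genes lower and 2 higher, and the calls over all genes moved from 4466 higher and 4341 lower to 6147 and 2857.

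The third comparison, of the combination with control, gave changes of nearly the same size. With the combination 73 of 79 genes fell and 1 rose, against 29.9% of all genes called in each direction. RPL13, RPL41, RPS21, RPS27 and RPS27L were not called in this fit. The median log2 fold change was -0.22 (13.9% lower than control), against 0.00 over all genes, and within the replicate sets it was -0.21 (replicates 1 to 3) and -0.24 (replicates 4 to 6). The libraries did not overlap for 61 genes, all lower, against 16.3% of all genes. Among genes with at least 1000 counts the 74 ribosomal protein genes had a median of -0.22 with 70 called lower, and the 2005 others had a median of -0.10 with 1075 (53.6%) called lower, or 55.1% over both. Scaling by library size alone moved the ribosomal protein median to -0.13, with 64 genes lower and 3 higher, and the calls over all genes from 4633 higher and 4625 lower to 6041 and 3311. This comparison shares its control libraries with the comparison of resveratrol, so their values are given side by side and not as independent results.

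**Figure D3:**
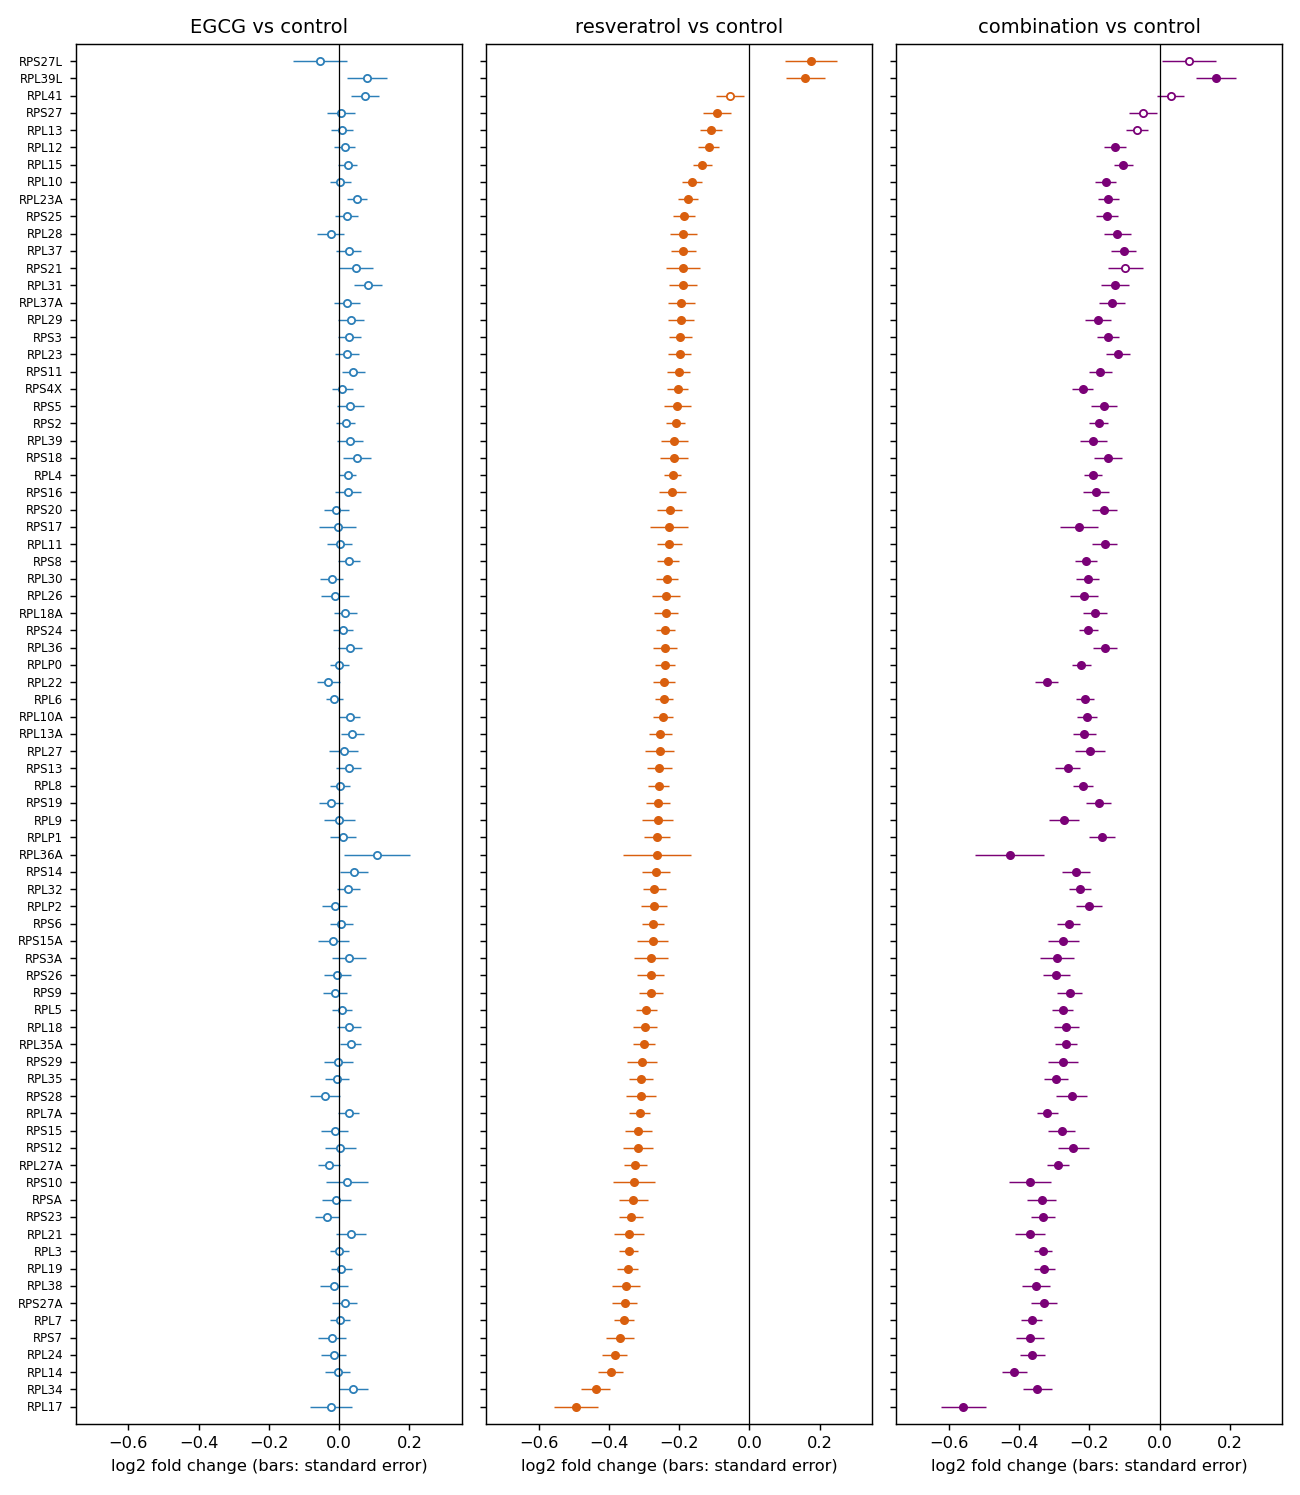
Log2 fold change against control (horizontal axes, bars are standard errors) of the 79 tested genes (vertical axis, ordered by the change with resveratrol) for EGCG, resveratrol and the combination, with filled circles for genes called at an adjusted p under 0.1 and a p under 0.05. All circles are open for EGCG, and with resveratrol and the combination 76 and 73 filled circles lie left of 0.

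The 4 genes that fell most with resveratrol, RPL17, RPL34, RPL14 and RPL24, belong to the large subunit. RPL17 (chr18:49488453-49492508 in GRCh38), which encodes a protein at the exit tunnel for the growing peptide, had 324, 391 and 426 normalized counts (lowest, median and highest of 6 libraries) in control, 310, 373 and 424 with EGCG, 254, 274 and 285 with resveratrol, and 237, 260 and 280 under the combination. Every library with resveratrol lay below every library without it. The log2 fold change was -0.49 ± 0.0625 (SE, adjusted p = 2.6e-08) with resveratrol and -0.56 ± 0.0639 (adjusted p = 2.3e-09) under the combination, and the exact permutation test of 6 against 6 libraries gave p = 0.00216, the smallest it can give, in both. RPL17 shares its strand and exons with the readthrough gene RPL17-C18orf32, and 94.6% of the counts of its family lay on pseudogene rows, so its change is less certain than its p shows.

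RPL34 (chr4:108620569-108630412), which has few pseudogene counts (13.2% of its family), had 1761, 1820 and 2067 normalized counts in control, 1781, 1886 and 2054 with EGCG, 1248, 1379 and 1449 with resveratrol, and 1393, 1421 and 1531 under the combination. The libraries with and without resveratrol again did not overlap. RPL34 fell by 0.44 on the log2 scale with resveratrol and by 0.35 under the combination. RPL14 (chr3:40457292-40468587) had 3980, 4208 and 4546 normalized counts in control, 3104, 3186 and 3323 with resveratrol, and 2922, 3193 and 3300 under the combination, or 24.0% and 24.9% lower than control. RPL24, part of a bridge between the subunits, fell by 0.38 with resveratrol and by 0.36 under the combination. RPL3, at the center that joins the amino acids, RPL7, RPL19, RPL38 and RPL21 fell by 0.34 to 0.36 with resveratrol and by 0.33 to 0.37 under the combination. The libraries of all 5 lay apart from control in both. Pseudogene rows held 73.6% of the family's counts for RPL7 and 82.0% for RPL21, against 19.7% for RPL3, 2.92% for RPL19 and 0.251% for RPL38.

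Of the small subunit, RPS7, a protein that also binds the p53 regulator MDM2, fell most with resveratrol. It had 4875, 5326 and 5981 normalized counts in control, 5014, 5185 and 5795 with EGCG, 3641, 4230 and 4310 with resveratrol, and 3975, 4089 and 4391 under the combination, a fall of 0.37 on the log2 scale in both. RPS27A, which is made as a fusion with ubiquitin, fell by 0.35 with resveratrol and by 0.33 under the combination. RPS10 fell by 0.33 and 0.37, and its reads may be shared with the readthrough gene RPS10-NUDT3. RPSA, known also as the laminin receptor, fell from 9639 ± 690 normalized counts in control to 7642 ± 261 with resveratrol and 7624 ± 450 under the combination (SD, n = 6). Pseudogene rows held 54.3% of the family's counts for RPS7, 44.7% for RPS27A, 69.7% for RPS10 and 62.0% for RPSA.

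RPS6, the substrate of the S6 kinases downstream of mTORC1, had 7651, 8176 and 8910 normalized counts in control, 7890, 8171 and 8915 with EGCG, 6455, 6847 and 7034 with resveratrol, and 6488, 6896 and 7198 under the combination. Its mRNA was 17.3% lower with resveratrol and 16.4% lower under the combination, close to the median gene of the set. RPL5 and RPL11, which carry the 5S rRNA into the ribosome and bind MDM2 when ribosomes are not assembled, both fell, by 0.29 and 0.23 with resveratrol and by 0.28 and 0.16 under the combination. The combination libraries of RPL11 (4544 to 5011 normalized counts) overlapped the control libraries (4951 to 5664), and those of RPL5 (5217 to 5556 against 6219 to 6929) did not.

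The 3 stalk proteins, which recruit elongation factors to the large subunit, all fell. RPLP0, the base of the stalk, had 14853, 15770 and 16380 normalized counts in control, 13022, 13300 and 13566 with resveratrol, and 12753, 13499 and 14124 under the combination. RPLP1 fell by 0.26 with resveratrol and by 0.17 under the combination, and RPLP2 by 0.27 and 0.20. RPL22, a large subunit protein that binds a small RNA of the Epstein-Barr virus, fell from 2097 ± 42.1 normalized counts in control to 1767 ± 49.9 with resveratrol and 1676 ± 59.0 under the combination (SD, n = 6).

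RPL41, RPL13 and RPS21 were, with RPS27 and RPS27L, the tested genes not called under the combination. The change of RPS21 with resveratrol did not stand apart, since the upper quartile of the set was -0.20. RPL41, the highest of all per length on the genes' own rows, had 9229, 9899 and 10750 normalized counts in control, 9537, 10629 and 11197 with EGCG, 8757, 9615 and 9923 with resveratrol, and 9458, 10118 and 10992 under the combination. All 4 groups overlapped, and the log2 fold changes of -0.06 ± 0.0393 with resveratrol (adjusted p = 0.247) and 0.03 ± 0.0394 under the combination (adjusted p = 0.516) were not called. Its start, shown above, lies in a pyrimidine run of 10 bases. RPL13 fell by 0.11 with resveratrol (adjusted p = 0.0043) and had a log2 fold change of -0.06 ± 0.0317 under the combination (adjusted p = 0.085, with an unadjusted p above 0.05). RPS21 fell by 0.19 with resveratrol and had a log2 fold change of -0.10 ± 0.0491 under the combination (adjusted p = 0.091), again with an unadjusted p above 0.05. Under the combination RPL13 was called lower in 7 and RPS21 in 9 of the alternative fits, those with a library left out included. RPL41, RPL13 and RPS21 were chosen for naming after their values were seen.

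The only genes that rose were paralogs. RPL39L, a paralog of RPL39 known from the testis and from cancer cells, had 235, 260 and 273 normalized counts in control, 246, 271 and 297 with EGCG, 262, 283 and 304 with resveratrol, and 256, 288 and 312 under the combination. The groups overlapped, and the log2 fold change was 0.16 ± 0.0554 with resveratrol and 0.16 ± 0.0562 under the combination (adjusted p = 0.015 in both), with exact permutation p = 0.00433 and p = 0.0195. It was called in replicates 1 to 3 (0.18 and 0.19) and not in replicates 4 to 6 (0.13 and 0.12). Its partner RPL39 fell by 0.21 with resveratrol and by 0.19 under the combination. Per length, RPL39L made up 14.2% ± 0.469 of the summed FPKM of the pair in control, 14.7% ± 0.834 with EGCG, 17.7% ± 1.01 with resveratrol and 17.4% ± 0.669 under the combination (SD, n = 6). By counts its share was 7.45% in control, 7.73% with EGCG, 9.43% with resveratrol and 9.28% under the combination. Pseudogene rows, left out of these shares, held 26.9% of the RPL39 family's counts, and RPL39L had 0 such rows.

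RPS27L, a p53-inducible paralog of RPS27, had 136, 144 and 184 normalized counts in control, 122, 146 and 158 with EGCG, 153, 170 and 187 with resveratrol, and 136, 164 and 172 under the combination. Its highest control library lay inside the resveratrol range. The log2 fold change was 0.18 ± 0.0747 with resveratrol (adjusted p = 0.048, exact permutation p = 0.0519) and 0.08 ± 0.0767 under the combination (adjusted p = 0.361). The call with resveratrol was lost in 6 of the alternative fits. Among them were those without control replicate 1 (0.15), control replicate 4 (0.15), resveratrol replicate 2 (0.16) or resveratrol replicate 4 (0.15). RPS27 fell by 0.09 with resveratrol (adjusted p = 0.055, exact permutation p = 0.0671) and had a log2 fold change of -0.05 ± 0.0399 under the combination (adjusted p = 0.322). The call of RPS27 with resveratrol was lost in 8 of the alternative fits, over which the change was as small as -0.0028. Among them were those without control replicate 2 (-0.08), control replicate 3 (-0.07), control replicate 5 (-0.06) or resveratrol replicate 1 (-0.07). Pseudogene rows held 79.9% of the counts of the RPS27 family.

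**Figure D4:**
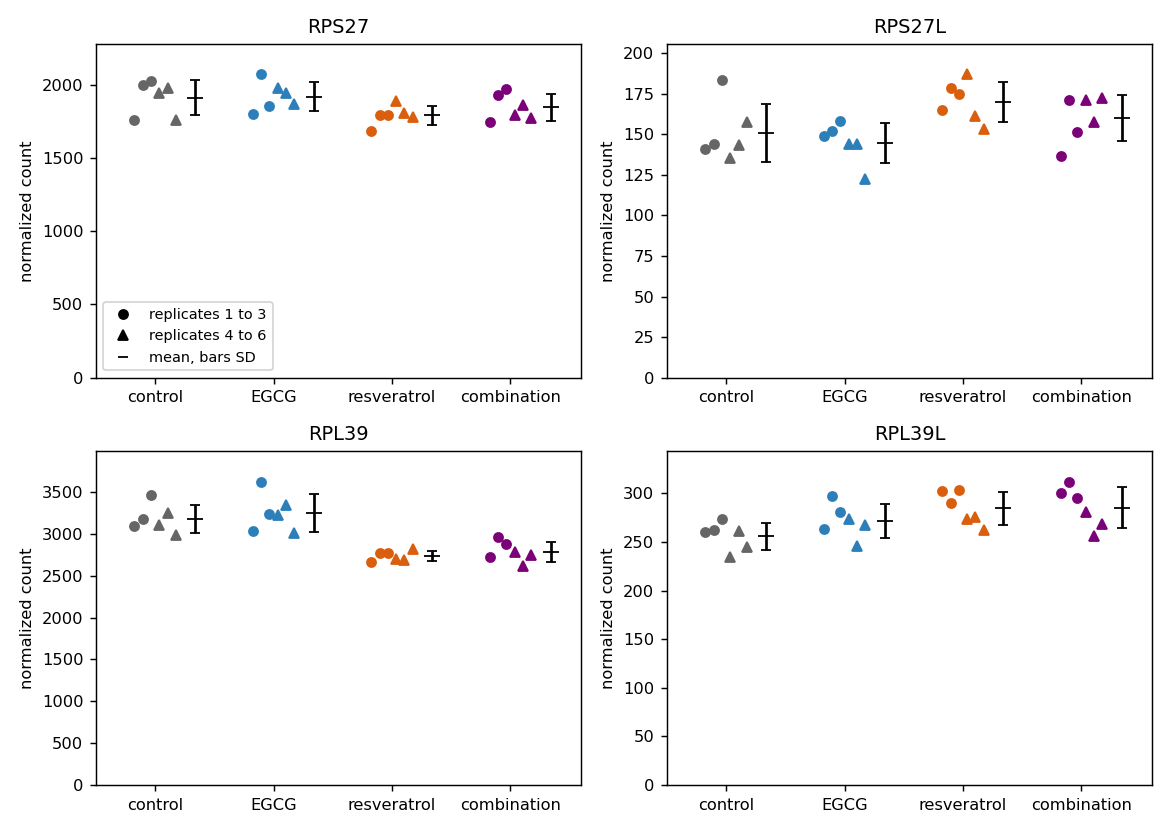
Normalized count per library (vertical axes, from 0) of RPS27, RPS27L, RPL39 and RPL39L in the 4 groups, with circles for replicates 1 to 3, triangles for replicates 4 to 6 and bars for the mean ± SD of 6 libraries. RPL39 separates the groups with resveratrol (2623 to 2962) from those without (2984 to 3628), and the ranges of the other 3 genes overlap between all groups.

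The fourth comparison asked what EGCG added to resveratrol. Of the 79 genes 0 were called higher and 0 lower in the combination against resveratrol, against 7.86% called in either direction among all genes tested. The median log2 fold change was 0.03, with 60 genes above 0 and 19 below. The smallest adjusted p was 0.128 (RPLP1, log2 fold change 0.10 ± 0.0371, SE), and at an unadjusted p under 0.05 edgeR gave 7 higher (RPL23, RPL34, RPL36, RPL37, RPL41, RPLP1 and RPS19) and 1 lower (RPL22). The DESeq2 Wald test called 0 genes. The count of 0 depended on the fit, since 2 genes (RPLP1 and RPS19) were called higher when the replicate set was a term in it. With the replicate number as a block, RPL34, RPL41, RPLP1 and RPS19 were called higher. The median was 0.06 in replicates 1 to 3, where 4 genes were called higher (RPL28, RPL37, RPLP1 and RPS19) and 1 lower (RPL22), and -0.01 in replicates 4 to 6, where 0 were called. The interaction of the agents, which asks whether EGCG acted differently with resveratrol than without it, was called for 0 of 79 genes, against 0.265% of all genes, with a median of 0.01 and a smallest adjusted p of 0.602. At an unadjusted p under 0.05 it held 1 gene higher (RPS19), and the DESeq2 Wald test called 0 genes.

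The order of the changes within the set recurred between replicates. Across the 79 genes the change in replicates 1 to 3 and that in replicates 4 to 6 had a Spearman correlation of 0.79 with resveratrol and 0.91 under the combination, as a description over genes that share their libraries. The correlation of the change with the mean control count was 0.060 and 0.11, with the gene length -0.0058 and -0.040, and with the share of family counts on pseudogene rows -0.19 and -0.34. The 45 genes with a pyrimidine run of at least 8 bases at their start had a median change of -0.26 with resveratrol and -0.24 under the combination. The 18 tested genes with a shorter run or none had medians of -0.26 and -0.22. The 28 genes that hold a total of 60 snoRNAs in their span all fell with resveratrol, with a median of -0.24, and 27 of them fell under the combination (-0.20). Among the 51 tested genes without a snoRNA 48 fell and 2 rose with resveratrol (-0.26), and 46 fell and 1 rose under the combination (-0.22).

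Counts of the ribosomal protein families lay partly on the genes' own rows and partly on rows of their pseudogenes. Whether the reads on pseudogene rows came from the mRNAs of the genes was not tested. The 1592 rows of ribosomal protein pseudogenes, of which 1021 had a count, held 2.66% to 3.33% of all counts, or 39.5% to 41.5% of the counts on genes and pseudogenes together. For 19 of the 81 genes the pseudogene rows held more counts than the gene itself, among them RPL17 (94.6%), RPL36A (93.3%), RPS26 (82.1%), RPL21 (82.0%) and RPS27 (79.9%). How reads that match several places were counted is not given in the sources used here. Of the 441 pseudogene rows tested 283 fell and 1 rose with resveratrol, with a median of -0.26, and 255 fell and 5 rose under the combination (-0.23). Of all genes tested, 28% fell and 28.9% rose with resveratrol, and 29.9% were called in each direction under the combination. With EGCG 1 pseudogene row rose and 0 fell, against 0.905% and 0.859% of all genes tested.

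When each gene was summed with its pseudogene rows, an alternative added after seeing the data, 77 families fell and 2 rose with resveratrol and 75 fell and 1 rose under the combination. Over all 15035 genes tested in that fit, 4203 fell and 4318 rose with resveratrol, and 4497 fell and 4505 rose under the combination. The largest shift was that of RPL36A under the combination. Its own row had 384, 437 and 492 normalized counts in control, 326, 489 and 581 with EGCG, 293, 371 and 430 with resveratrol, and 237, 337 and 366 under the combination, a wide spread for this set. The fall of 0.43 ± 0.0995 under the combination became 0.19 ± 0.0363 on the family sum, while that with resveratrol was 0.26 on the own row and 0.25 on the sum. RPL17 moved from falls of 0.49 and 0.56 to 0.37 and 0.35. RPL41, not called on its own row with resveratrol, fell by 0.08 on the sum (adjusted p = 0.052).

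**Figure D5:**
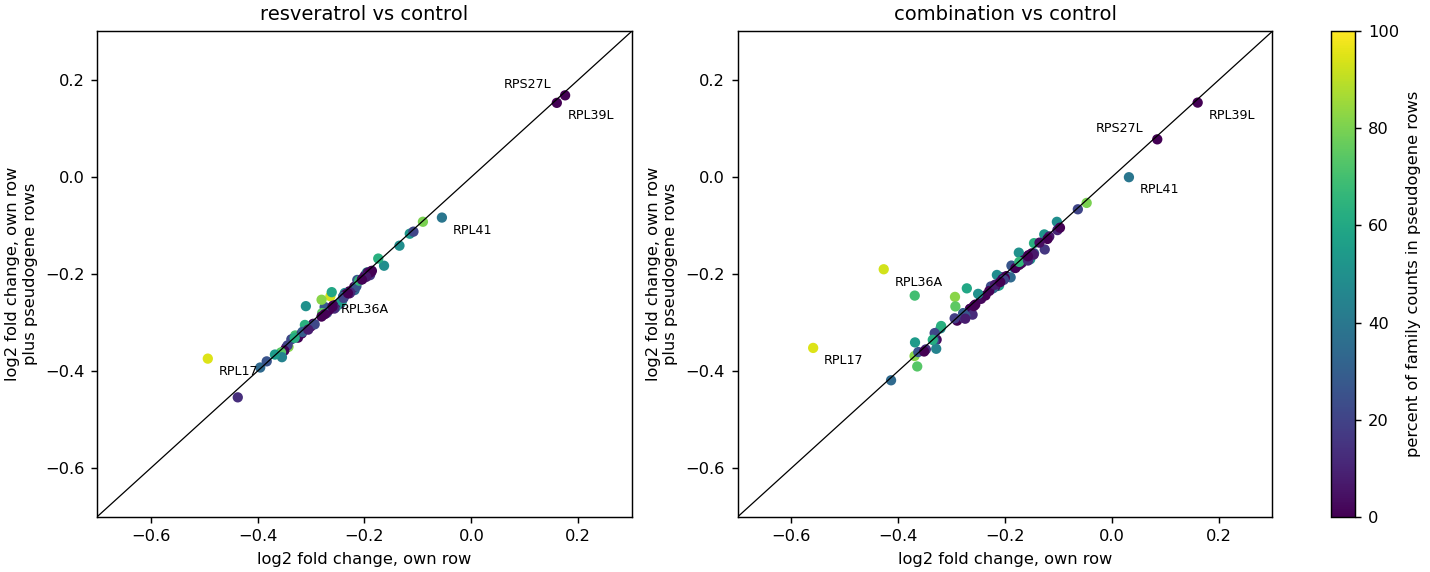
Log2 fold change of the 79 tested genes from their own row (horizontal axes) and from their own row plus their pseudogene rows (vertical axes) for resveratrol and the combination, colored by the percent of family counts on pseudogene rows, with the line of equal values. Most points lie on the line, and RPL17 in both panels and RPL36A under the combination lie above it.

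Paralogs and a fusion gene outside the naming rule also fell. The 5 reported here all fell with resveratrol and 4 of them under the combination, with RPL36AL the exception (-0.11 ± 0.0358 with resveratrol and -0.04 ± 0.0359 under the combination, adjusted p = 0.35). Over all genes tested 28% and 29.9% were called lower in these comparisons. RPL22L1, the paralog of RPL22, had 280, 354 and 370 normalized counts in control, 290, 322 and 374 with EGCG, 182, 219 and 237 with resveratrol, and 173, 195 and 235 under the combination. The libraries with resveratrol lay below all others, and its falls of 0.64 and 0.76 on the log2 scale were larger than that of any of the 79 genes. FAU, which makes a ribosomal protein as a fusion with a ubiquitin-like protein, fell by 0.23 with resveratrol and by 0.20 under the combination. RPL7L1 fell by 0.25 and 0.21, and RPL26L1 by 0.19 and 0.20.

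Of 19 listed translation factors and related proteins whose mRNAs carry the TOP motif, 1, EEF1G, had at most 2 counts in a library. Whether this reflects its level or how reads were assigned was not tested. The other 18 factors entered the tests. None was called with EGCG by edgeR, against 1.76% of all genes tested, and 1 factor, EIF2S3, had an unadjusted p under 0.05 (log2 fold change -0.14 ± 0.0422, adjusted p = 0.106). All 18 fell with resveratrol (median -0.24), and 16 fell under the combination (-0.22), where EEF2 (-0.03 ± 0.0268) and TPT1 (-0.06 ± 0.0324) were not called. Over all genes tested 28% and 29.9% were called lower in these comparisons. Among genes with a mean of at least 1000 counts these shares were 56.1% and 55.1%. EIF2S3, a subunit of the factor that brings the initiator tRNA, fell by 0.52 with resveratrol and by 0.71 under the combination, and it was lower in the combination than with resveratrol alone (-0.20 ± 0.0455, adjusted p = 0.0066). EIF3E, BTF3 and PABPC1 fell by 0.47, 0.41 and 0.37 with resveratrol and by 0.54, 0.44 and 0.34 under the combination.

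Of 17 listed genes of mTORC1 and of TOP mRNA control, 16 were tested. With EGCG 3 rose and 0 fell, against 0.905% and 0.859% of all genes tested. DDIT4 (0.28 ± 0.0361) and SESN2 (0.19 ± 0.0462), which restrain mTORC1, and EIF4EBP1 (0.17 ± 0.0405), which binds the cap-binding protein, were those 3. With resveratrol 7 rose and 4 fell, against 28.9% and 28% of all genes tested, with a median of 0.05. Under the combination again 7 rose and 4 fell, against 29.9% of all genes in each direction, with a median of 0.02. The share of falls was thus near that of all genes in both comparisons, and the share of rises was above it. This difference, in a list of 16 tested genes, was not tested. SESN2 had 472, 520 and 538 normalized counts in control, 529, 598 and 623 with EGCG, 703, 739 and 798 with resveratrol, and 857, 905 and 941 under the combination. Its level was thus highest in the combination, where it exceeded resveratrol alone by 0.28 ± 0.0426 on the log2 scale (adjusted p = 3.8e-05). PDCD4, an inhibitor of the helicase eIF4A, rose by 0.59 with resveratrol and by 0.60 under the combination. EIF4E, the cap-binding protein, fell by 0.35 and 0.44, and LARP1, which binds TOP mRNAs, fell by 0.31 and 0.32.

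Of 9 chaperones that escort single ribosomal proteins, 8 fell with resveratrol (median -0.22) and 8 under the combination (-0.30), and HEATR3, which serves RPL5, was called in neither (-0.04 ± 0.0527 and -0.10 ± 0.0539). The shares of all genes tested that fell were 28% and 29.9%. GRWD1, which serves RPL3, fell by 0.32 and 0.41, and BCCIP, which serves RPL23, by 0.39 and 0.40. Among 77 tested genes of the mitochondrial ribosome, which is assembled from a separate set of proteins, 56 fell and 2 rose with resveratrol (median -0.18), and 56 fell and 5 rose under the combination (-0.20). Of all genes tested, 28% fell and 28.9% rose with resveratrol, and 29.9% were called in each direction under the combination. MRPL3 fell by 0.56 and 0.72, and MRPL41 and MRPL10 rose, by 0.19 and 0.16 with resveratrol and by 0.19 and 0.18 under the combination. The mitochondrial set thus held a smaller share of falls than the cytosolic set in both comparisons, and the difference between the sets was not tested.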

How the data were processed

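Total RNA of 24 samples of MDA686TU cells was extracted with RNeasy and made into stranded TruSeq mRNA libraries. Per the submitters' processing notes, the tools were bcl2fastq 2.17.1.14, Trimmomatic 0.36, FastQC 0.11.5, HISAT2 2.0.4 (GRCh38), SAMtools 1.3.1 and DESeq2 1.20.0. The counting program, strand setting and handling of reads with several matches are not given in the sources used here. The authors deposited raw counts per gene, without normalization. The normalized counts, a signal that the authors made, are these counts over 1 size factor per library. The authors' FPKM are normalized counts over 1 value per gene, taken here as its length. Both ratios were checked to be constant on the files, and the lengths themselves were not checked. Symbols came from GENCODE (60261 of 60617 genes).

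Raw counts of all 24 libraries were fitted in edgeR 4.0.16 (R 4.3.3; TMM, filterByExpr, quasi-likelihood test) over 15476 genes, with Benjamini-Hochberg adjustment over all of them. The limits of the study's methods, an adjusted p under 0.1 with a p under 0.05, set the calls. For single genes a two-sided exact permutation test compared mean log2 CPM (prior count 2; 924 splits). Named genes were those with up to 10 largest rises and falls per comparison, the 3 highest and lowest per length, those that failed the filter, fixed paralogs and functional members, and up to 6 called genes of each other list. The genes, lists and alternatives were chosen with earlier results of these data known. Alternatives were DESeq2 1.42.0 (Wald test or size factors), library size alone, TMM without the ribosomal protein genes, other filters and thresholds, only the groups compared, the replicate block, the replicate set (1 to 3 or 4 to 6) as a term, each set alone, each library left out, and sums with pseudogenes. On simulated counts of the combination against control, edgeR called 182 of 196 changed genes and 25 unchanged ones of 15307 genes, and DESeq2 called 179 of the 196. How often changes as small as the ribosomal protein medians are called was not tested. The biological coefficient of variation was 5.32%. The study's mouse, RT-qPCR and protein experiments were not analysed here. The results of 1 listed gene are not reported here.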

Additional observations from a re-analysis of the deposited data

Results flagged for a closer look

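Among 120 groups of 6 libraries tested (28 named genes and 2 summary shares in 4 groups), 10 held a library whose gap to the nearest of the others, as a share of the whole range, was above Dixon's 95% critical value. Chance alone gives about 1 in 20 such groups. Of these, 4 lie in control replicate 3 or EGCG replicate 2, which were high over nearly all ribosomal protein genes. RPL34 had 2067 normalized counts in control replicate 3 against 1761 to 1844 in the others, RPL5 had 7064 in EGCG replicate 2 against 6371 to 6622, and RPS7 had 5795 in EGCG replicate 2 against 5014 to 5304. The share of pseudogene rows in the sum of gene and pseudogene counts was 40.5% in control replicate 3 against 40.1% to 40.2%.

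With resveratrol, RPL41 had 8757 normalized counts in replicate 1 against 9536 to 9923, RPL5 had 5755 in replicate 6 against 5183 to 5377, and RPS7 had 3641 in replicate 4 against 4084 to 4310. Under the combination, RPL21 had 2882 in replicate 2 against 2537 to 2654, RPLP2 had 2697 in replicate 3 against 2418 to 2508, and RPL36A had 237 in replicate 6 against 321 to 366. The calls of these genes did not depend on leaving out any 1 of these libraries.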

How the results depend on the processing

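With each library left out in turn, 75 to 76 ribosomal protein genes fell with resveratrol and 73 to 75 under the combination, and over the other alternatives 71 to 77 and 64 to 75 fell. The count of rises with resveratrol was 1 in replicates 1 to 3, 0 in replicates 4 to 6, and 1 to 2 with each library left out. Rises under the combination numbered 3 with library size alone (RPL39L, RPS27L and RPL41) and 0 in replicates 4 to 6. Library size alone gave medians of -0.17 with resveratrol and -0.13 under the combination, and summed levels of 0.897 and 0.914 of control. The unadjusted p alone gave 1 rise with EGCG, 7 rises and 1 fall in the combination against resveratrol, and 1 rise in the interaction. Testing every gene with a count gave 1 rise (RPLP1) and 1 fall (RPL36A) in the combination against resveratrol and 1 fall (RPL36A) in the interaction. The combination against resveratrol further gave 2 rises with the replicate set (1 to 3 or 4 to 6) as a term, 1 with only the groups compared, 4 rises and 1 fall in replicates 1 to 3, and 0 to 1 rise with each library left out. Directions reversed with library size alone for RPL41 with resveratrol (0.033) and for RPL13 (0.019) and RPS27 (0.036) under the combination. Under the combination they also reversed for RPS27L in replicates 1 to 3 (-0.025) and for RPL41 in replicates 4 to 6 (-0.0065) and on the family sum (-0.00064). None of these 6 was called in the reported fit. The cause was not tested. Of 52 results for named genes, 40 kept direction and call in every alternative.

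Whether the replicate numbers pair the samples could not be settled, since same-numbered libraries also share their replicate set. Only 2 of 36 same-numbered pairs had a correlation of deviations over 0.1 (range -0.01 to 0.13), and 11 of 24 libraries correlated best with their own number. With the replicate number as a block, 4 genes (RPL34, RPL41, RPLP1 and RPS19) were called higher in the combination against resveratrol, 75 fell under the combination and 76 with resveratrol. Over all genes, the calls in the combination against resveratrol moved from 1217 to 1520 with this block. They moved to 1408 with the replicate set as a term. Depth limits mainly RPL10L and RPL3L, and uncertain read origin limits the 19 genes with more pseudogene than own counts.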
